A study of Homo sapiens with 16 samples.

Results

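Mediator is the large coactivator complex that sits between DNA-bound transcription factors and RNA polymerase II. Its 30 human MED genes, MED1 to MED31 by name with the paralogs MED12L and MED13L, were taken as 1 list, and their RNA in HL60 cells was followed after inhibition of CDK7. Of the 30, 27 have a row among the 18080 genes of the count table, 1 row a symbol, and all 27 passed the filter on low counts with 8 libraries. Expression of MED16, MED18 and MED22 was not analysed here. The head module contacts the polymerase and the preinitiation complex, the middle module links head and tail and bears the MED1 surface for nuclear receptors, and the tail holds most docking sites for activators. MED14 is the scaffold that runs through all of them. A separable kinase module, built from MED12 or MED12L, MED13 or MED13L, cyclin C and either CDK8 or CDK19, binds the core reversibly and blocks its contact with the polymerase. The subunits were assigned to modules by textbook structure: 7 to the head, 9 to the middle, 1 as scaffold, 5 to the tail, 4 to the kinase module, and MED27 to MED30 to a group at the boundary of head and tail, where structures differ.

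HL60 is an established human acute promyelocytic leukaemia line, labelled wild type in both groups. Cells received the CDK7 inhibitor SY-351 at 50 nM, or its solvent DMSO, for 5 h, and polyadenylated RNA was sequenced from 4 numbered replicates of each, with 2 technical repeats behind each replicate. CDK7 is the kinase of TFIIH, the general factor that acts beside Mediator when the polymerase leaves the promoter, and the study asked about its part in transcription, splicing and termination. No label ties the replicates to separate cultures, and the p-values therefore cover only the spread between these libraries, which may be technical. In bulk RNA such as this, fewer cells of a type and less RNA per cell cannot be told apart.

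The DMSO libraries fell into 2 unlike pairs. Replicates 3 and 4 correlated with the SY-351 libraries at Pearson r of 0.936 to 0.951 across genes (log2 of CPM plus 1, CPM being counts per 1000000 of the library total), whereas replicates 1 and 2 reached 0.703 to 0.733 with them and 0.744 to 0.771 with DMSO 3 and 4. Library totals were 103.7 to 124.2 M counts in DMSO and 43.3 to 77.9 M in SY-351, where 3 counts equal 0.0241 to 0.0693 CPM. Of 7 promyelocytic markers 4 have a row, and they summed to 21700 to 31800 CPM in DMSO and 35200 to 38900 CPM with SY-351. Among them MPO had 19000 to 33600 CPM in every library, while CD33 had 3.73 and 2.04 CPM for DMSO 1 and 2 against 76.8 to 104 CPM in the other six. The 12 markers of other blood cells summed to 8.46 to 17.1 CPM across DMSO 1 to 4 against 21.6 to 24.8 CPM with SY-351, mostly CD79A at 6.4 to 8.26 and 15.5 to 16.3 CPM, while CD3D, HBB, HBA1, PF4 and PPBP were at or near 0, at most 0.169 CPM. The part of these shifts in the results was not tested. Counts of calls are therefore given with all 4 DMSO libraries, with DMSO 3 and 4 only, and with DMSO 1 and 2 only. Fold changes are log2 values from edgeR with TMM scaling and their SE, and a gene is called at a Benjamini-Hochberg adjusted p below 0.05 over all genes tested.

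The sequences below belong to the exons and promoters on which the results turn. The exons are those at which junctions lost inclusion with SY-351 in the authors' splicing table, each printed in capitals with 12 bases of the neighbouring exons in lower case (GENCODE release 29, GRCh38). MED13 exon 25 of 30 lies at chr17:61955680-61955838 on the minus strand and is 159 nt long, a multiple of 3. MED17 exon 8 of 12 lies at chr11:93797535-93797719 on the plus strand and has 185 nt. MED29 exon 2 of 4 lies at chr19:39392464-39392522 on the plus strand and has 59 nt. MED23 exons 14 and 15 of 29 lie at chr6:131605240-131605485 and chr6:131604178-131604320 on the minus strand, with 246 and 143 nt. Of these, MED13 exon 25 and MED23 exon 14 keep the reading frame by length, and all lie in coding sequence.
MED13 exon 25: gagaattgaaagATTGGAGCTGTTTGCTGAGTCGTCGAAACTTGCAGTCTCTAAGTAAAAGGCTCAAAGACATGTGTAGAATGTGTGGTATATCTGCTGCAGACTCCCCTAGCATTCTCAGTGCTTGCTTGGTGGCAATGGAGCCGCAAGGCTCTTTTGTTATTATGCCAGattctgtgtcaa
MED17 exon 8: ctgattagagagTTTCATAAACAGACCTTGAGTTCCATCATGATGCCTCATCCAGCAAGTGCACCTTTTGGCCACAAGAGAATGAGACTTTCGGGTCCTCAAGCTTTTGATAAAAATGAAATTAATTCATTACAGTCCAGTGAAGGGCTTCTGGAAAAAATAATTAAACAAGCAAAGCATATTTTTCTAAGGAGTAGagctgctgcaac
MED29 exon 2: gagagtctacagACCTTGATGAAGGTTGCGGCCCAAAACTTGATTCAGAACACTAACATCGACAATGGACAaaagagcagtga
MED23 exon 14: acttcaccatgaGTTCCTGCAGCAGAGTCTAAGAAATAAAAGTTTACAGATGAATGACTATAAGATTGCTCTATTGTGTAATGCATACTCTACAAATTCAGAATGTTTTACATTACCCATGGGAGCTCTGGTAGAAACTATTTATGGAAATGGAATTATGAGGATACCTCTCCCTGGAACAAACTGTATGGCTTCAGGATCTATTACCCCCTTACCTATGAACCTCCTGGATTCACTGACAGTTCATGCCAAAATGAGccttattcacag
MED23 exon 15: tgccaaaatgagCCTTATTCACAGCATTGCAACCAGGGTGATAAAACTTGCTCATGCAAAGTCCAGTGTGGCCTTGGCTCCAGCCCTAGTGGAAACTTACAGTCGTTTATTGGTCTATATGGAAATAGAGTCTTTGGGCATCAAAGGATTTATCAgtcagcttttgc

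Promoters are shown for MED19 and MED9, the pair with the largest fall over all 8 libraries, as the 250 bases before the RefSeq start (GRCh38.p14). Capitals mark any of 5 motifs on either strand. The CCAAT box was searched as CCAAT and the GC box as GGGCGG. The core of ETS factors was searched as CCGGAAG. The TATA box was searched as TATAAA. The core of YY1 was searched as AAGATGG. The MED19 promoter, at chr11:57712216-57712465 on the minus strand, holds CCAAT 4 times and GGGCGG 1 time. The MED9 promoter, at chr17:17476750-17476999 on the plus strand, holds 1 GGGCGG.
MED19 promoter: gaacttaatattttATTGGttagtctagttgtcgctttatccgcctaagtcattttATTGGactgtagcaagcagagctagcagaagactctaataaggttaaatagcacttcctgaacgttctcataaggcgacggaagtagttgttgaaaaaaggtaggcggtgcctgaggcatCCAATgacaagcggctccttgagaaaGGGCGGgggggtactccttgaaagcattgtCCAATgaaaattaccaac
MED9 promoter: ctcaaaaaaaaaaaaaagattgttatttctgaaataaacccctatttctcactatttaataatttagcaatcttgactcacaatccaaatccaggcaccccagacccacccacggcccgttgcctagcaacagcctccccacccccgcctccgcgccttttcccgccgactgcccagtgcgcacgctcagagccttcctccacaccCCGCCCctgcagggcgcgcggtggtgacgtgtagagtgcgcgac
Of the 30 genes, 22 have 24 entries in the promoter table, MED15 and MED7 with 2 overlapping or neighbouring starts each. The 2 MED7 entries overlap, and the same CCAAT and CCGGAAG are counted in both. CCAAT stood in 9 of these 24 entries against 32% of all 35116 entries of the same length, GGGCGG in 14 of 24 against 42.6%, CCGGAAG in 6 of 24 against 8.52%, AAGATGG in 3 of 24 against 3.7% and TATAAA in 2 of 24 against 10.7%. Among the other three members that were lower with every set of controls (below), MED29 holds CCAAT 3 times and GGGCGG 2 times, MED17 holds CCGGAAG 2 times and MED11 holds AAGATGG 1 time, and none of these motifs is held by all 5 promoters. A match is a description of letters and not of a bound site.

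With all 8 libraries, 5 of the 27 Mediator genes fell with SY-351: MED11 and MED17 of the head, MED9 and MED19 of the middle module, and MED29 at the head-tail boundary. That is 18.5% of the members, where 13.6% of all 15472 genes tested were called lower. edgeR called 0 of 27 higher, against 2.91% of all genes; 0 members were higher at an unadjusted p below 0.05, and DESeq2 also called 0 higher, with 1 at an unadjusted p below 0.05. The same 5 were called lower against DMSO 3 and 4 alone and against DMSO 1 and 2 alone. Single libraries moved the count: it was 3 without SY-351 replicate 1 or 3 (MED17, MED9 and MED29), 9 without DMSO replicate 3 and 8 without DMSO replicate 4. By CPM, all 4 SY-351 values lay below all 4 DMSO values for 8 of 27 members (those 5 and MED25, MED26 and MED30), against 21.4% of all genes, and above them for 1 (MED28), against 11.2%.

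**Figure D1:**
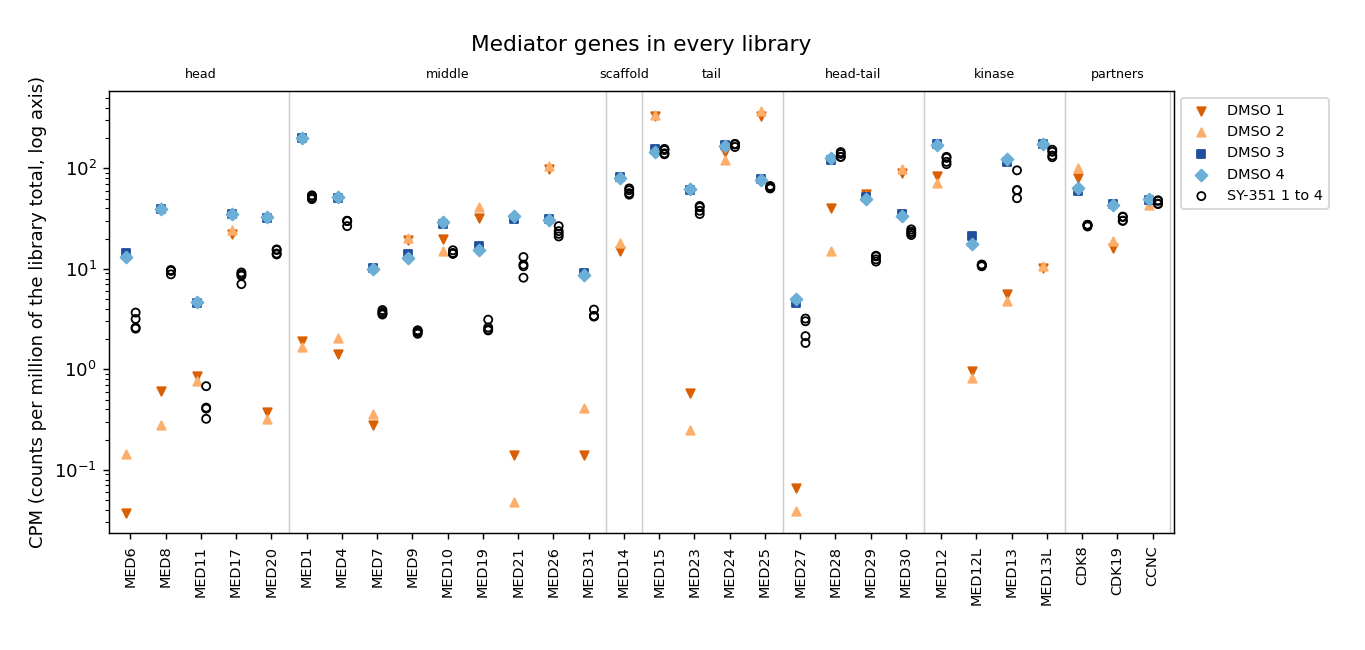
CPM (log axis) of the 27 Mediator genes and of CDK8, CDK19 and CCNC in each of the 8 libraries, ordered by module; filled symbols are the 4 DMSO libraries and open circles the 4 SY-351 libraries. The DMSO 3 and 4 values almost coincide, DMSO 1 and 2 lie far below them for 14 genes, and the SY-351 values of MED9, MED11, MED17, MED19 and MED29 lie below all 4 DMSO values.

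The choice of controls changed the rest of the picture. Against DMSO 3 and 4, 16 of 27 members were lower (59.3%, background 26.4% of 15811 genes) and 3 were higher (background 21.9%). Against DMSO 1 and 2, 11 were lower (background 38.4% of 15618 genes) and 15 higher (background 40.8%). MED6, MED8, MED20, MED1, MED4, MED7, MED21, MED31, MED12L and MED13 were called lower against the one pair and higher against the other, and MED15 and MED24 the reverse. For MED24 every SY-351 CPM lay above DMSO 1 and 2, so its lower call there depends on the TMM scaling. MED10 joined the 5 as lower against both pairs, though its SY-351 CPM overlapped those of DMSO 1 and 2. MED28 was higher against both pairs.

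**Figure D2:**
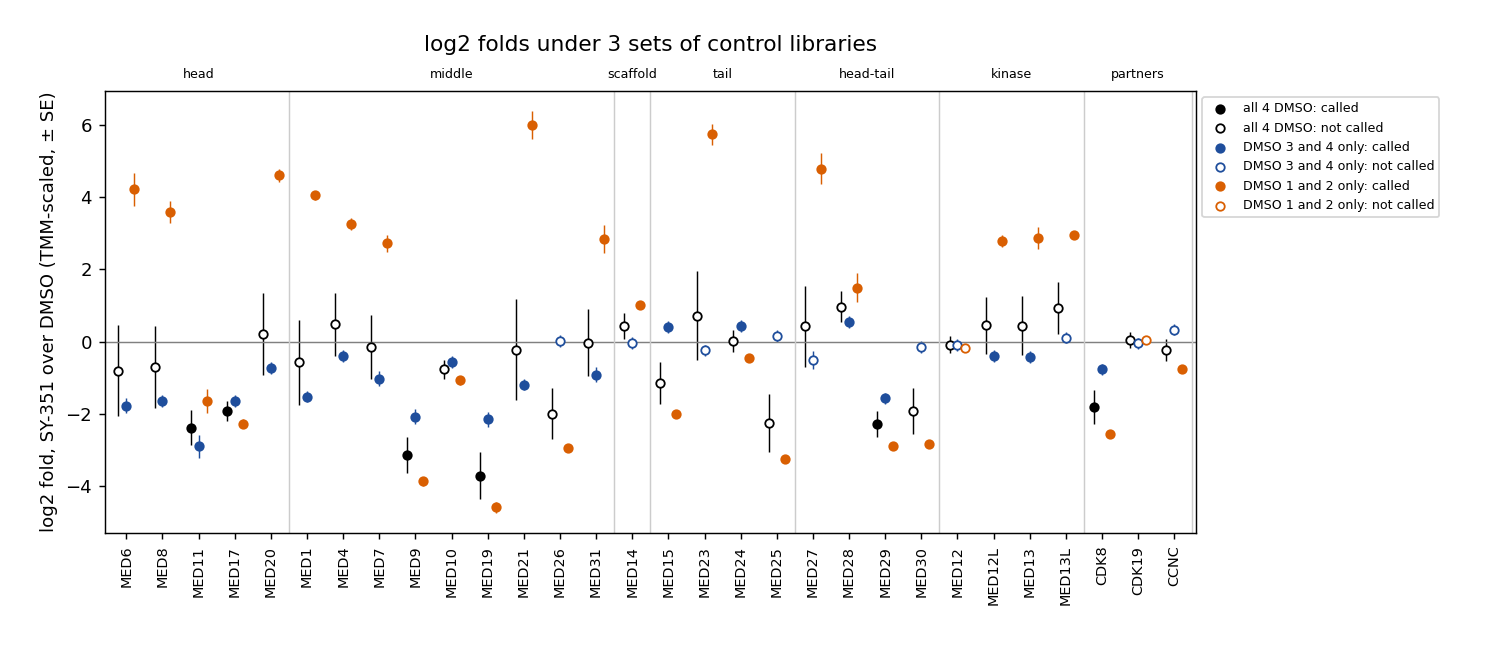
log2 folds (SY-351 over DMSO, TMM-scaled, bars are SE) of each gene against all 4 DMSO libraries (black), DMSO 3 and 4 (blue) and DMSO 1 and 2 (orange); filled symbols are called at adjusted p below 0.05. Only for MED11, MED17, MED9, MED19, MED29 and, among the kinase partners, CDK8 are all 3 symbols filled and below 0; the orange points reach 6.0 for MED21.

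The zero line of these folds moves with the scaling. With all 8 libraries, TMM gave DMSO 3 a factor of 1.61 and DMSO 4 one of 1.21 although their CPM of 26 of the 27 members were within 15 percent of each other. The fits with 1 DMSO pair computed their own factors, which were not recorded. DMSO 1 and 2 had factors of 0.661 and 0.657 in the fit with all 8 libraries, and total count scaling was not run against that pair alone. Scaling DMSO 3, DMSO 4 and the SY-351 libraries by their totals instead moved the median fold of all genes from 0.01 to -0.45, and then 24 members were lower (background 43.3%) and 0 higher (background 13.1%). The 3 higher calls against DMSO 3 and 4 (MED28, MED24 and MED15) therefore depend on the scaling: their log2 folds of 0.54, 0.44 and 0.40 became 0.12, 0.02 and -0.03. By CPM, 24 of 27 members had every SY-351 library below DMSO 3 and 4, but the share of all genes was not counted for this pair.

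Among the modules the head had the lowest median against DMSO 3 and 4. All 5 measured head genes were called lower there (background 26.4%), with a median log2 fold of -1.65 where the median of all genes was 0.01. With all 8 libraries the head median was -0.81 and 2 of 5 were called lower (background 13.6%). MED17, the subunit at the joint of head and middle and the target of activators such as p53, had 22.3, 24.1, 35.3 and 34.8 CPM across DMSO 1 to 4 against 7.04, 9.20, 8.54 and 8.85 CPM under SY-351 1 to 4. The 2 groups did not overlap, and both DMSO pairs lay well above every treated library. The mean was 29.1 ± 6.92 CPM across DMSO 1 to 4 against 8.41 ± 0.952 in SY-351 (SD, n = 4 each), a log2 fold of -1.91 ± 0.28 (SE; adjusted p = 0.00572 by edgeR), with -1.64 against DMSO 3 and 4 and -2.27 against DMSO 1 and 2. It was counted over chr11:93784282-93814963 on the plus strand.

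MED11, a small subunit that pairs with MED22 in the head, had 0.867, 0.772, 4.55 and 4.67 CPM across DMSO 1 to 4 against 0.680, 0.322, 0.407 and 0.416 CPM under SY-351. All treated values were below the lowest DMSO value, narrowly so for SY-351 replicate 1. The log2 fold was -2.38 ± 0.49 (edgeR adjusted p = 0.0164), and -2.90 ± 0.32 against DMSO 3 and 4, the largest fall of any member there. CXCL16 overlaps the interval counted (chr17:4731428-4733604) on the opposite strand. Reads were counted at strand setting 1, but strandedness of the kit is unstated, so whether reads of the 2 genes were kept apart is not known. The same limit holds for the other genes below with a gene on the opposite strand. MED11 lost its call when any 1 SY-351 library was left out, at log2 folds within -2.64 to -1.99 over all single omissions.

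MED6, MED8 and MED20 showed how the DMSO pairs differ. MED8, which tethers MED18 and MED20 to the rest of the head, had 0.615 and 0.280 CPM for DMSO 1 and 2, 39.6 and 39.7 for DMSO 3 and 4, and 9.58, 9.58, 9.74 and 8.81 in SY-351. The treated libraries thus lay between the 2 control pairs. MED6, next to the polymerase in the assembled complex, had 0.0373, 0.145, 14.4 and 13 CPM across DMSO 1 to 4 against 2.54 to 3.67 CPM under SY-351, and MED20 had 0.373, 0.318, 32.3 and 33.0 CPM across DMSO 1 to 4 against 13.9 to 15.6 CPM under SY-351. Against DMSO 3 and 4 their log2 folds were -1.65 ± 0.16 for MED8 (adjusted p = 3.39e-24), -1.77 ± 0.20 for MED6 (5.14e-17) and -0.73 ± 0.16 for MED20 (1.27e-05). Over all 8 libraries the values were -0.71, -0.81 and 0.22, and none was called.

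In the middle module, 2 of 9 genes were called lower with all 8 libraries (median log2 fold -0.57, background 13.6%). Against DMSO 3 and 4 it was 8 of 9 (median -1.03, background 26.4%). MED19, one of the subunits that link Mediator to the repressor REST, had 32, 40.9, 16.7 and 15.3 CPM across DMSO 1 to 4 against 2.49, 2.61, 2.44 and 3.12 CPM under SY-351. No treated library came near any control, and DMSO 1 and 2 were here the higher pair. Its log2 fold was -3.71 ± 0.65 (edgeR adjusted p = 0.00984), the largest of any member over all 8 libraries, and -2.15 ± 0.20 against DMSO 3 and 4, a 4.45-fold lower level. It was counted over chr11:57703710-57712215 on the minus strand. Without SY-351 replicate 1 or 3 the call was lost.

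MED9, a partner of MED4 and MED7 in the middle module, had 19.2, 20.3, 14.1 and 12.9 CPM across DMSO 1 to 4 against 2.26, 2.35, 2.44 and 2.43 CPM under SY-351. All 4 treated values were below every control, with an SD of 0.0838 CPM between them. The log2 fold was -3.13 ± 0.50 (edgeR adjusted p = 0.00776), -2.08 ± 0.21 against DMSO 3 and 4 and -3.87 ± 0.12 against DMSO 1 and 2. MED10, which binds MED14 near the hook of the complex, had 19.9, 14.9, 28.1 and 29.4 CPM across DMSO 1 to 4 against 14.1 to 15.3 CPM under SY-351. Its ranges touched at DMSO 2, and its log2 fold of -0.77 ± 0.26 missed the threshold over all 8 libraries (edgeR adjusted p = 0.0828) while it was called at -0.57 against DMSO 3 and 4 and at -1.07 against DMSO 1 and 2.

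MED1, the docking subunit for nuclear receptors and for GATA factors in blood cells, had 1.90 and 1.67 CPM for DMSO 1 and 2, 200 and 199 for DMSO 3 and 4, and 49.4, 53.3, 53.8 and 51.2 in SY-351. All treated libraries lay between 2 control pairs that differ 112-fold. The log2 fold was -1.52 ± 0.15 against DMSO 3 and 4 (edgeR adjusted p = 1.59e-21) and 4.05 ± 0.12 against DMSO 1 and 2. MED21, which forms a hinge with MED7, showed the same order, with 0.140 and 0.0482 CPM for DMSO 1 and 2, 31.2 and 33.8 for DMSO 3 and 4, and 8.16 to 13.1 in SY-351. Its log2 fold was -1.19 ± 0.16 against DMSO 3 and 4 and 6.0 ± 0.38 against DMSO 1 and 2.

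MED7, MED31 and MED4 followed the same order with smaller distances to DMSO 3 and 4. MED7 had 0.280, 0.357, 10.3 and 9.91 CPM across DMSO 1 to 4 against 3.51 to 3.89 CPM under SY-351, and a log2 fold of -1.03 ± 0.21 against DMSO 3 and 4. MED31, one of the most conserved subunits, had 0.140, 0.415, 8.99 and 8.75 CPM across DMSO 1 to 4 against 3.35 to 3.93 CPM under SY-351, a log2 fold of -0.91 ± 0.22 against DMSO 3 and 4, and TXNDC17 on the opposite strand of its interval. MED4 had 1.43, 2.04, 51.1 and 51.9 CPM across DMSO 1 to 4 against 26.6 to 30.1 CPM under SY-351, and a log2 fold of -0.40 ± 0.16. MED26, which recruits elongation factors to Mediator, was the exception among the 9: it had 98.9, 105, 31.5 and 30.9 CPM across DMSO 1 to 4 against 21.0 to 26.6 CPM under SY-351. Its treated libraries lay below all controls by CPM, but its log2 fold was 0.01 ± 0.16 against DMSO 3 and 4 (adjusted p = 0.972), or -0.41 and called lower with total count scaling, and -1.99 ± 0.70 over all 8 libraries (edgeR adjusted p = 0.0895).

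The call of the scaffold MED14 turned with the controls and the scaling. It had 15.2, 18, 81.7 and 80.0 CPM across DMSO 1 to 4 against 54.7 to 63.1 CPM under SY-351, below DMSO 3 and 4 and above DMSO 1 and 2. The log2 fold was 0.43 ± 0.37 over all 8 libraries (edgeR adjusted p = 0.450) and -0.04 ± 0.16 against DMSO 3 and 4, neither called. It was called higher against DMSO 1 and 2 (1.01 ± 0.11, edgeR adjusted p = 1.53e-05), and lower against DMSO 3 and 4 with total count scaling (-0.46, edgeR adjusted p = 0.000131). On the opposite strand, an entry that kept its RefSeq identifier overlaps the MED14 interval.

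Against DMSO 3 and 4, edgeR called 0 of 4 tail subunits lower and 2 higher, with a median log2 fold of 0.28 (background 26.4% lower and 21.9% higher). With total count scaling the same libraries gave 2 lower (MED23 at -0.66 and MED25 at -0.26) and 0 higher (background 43.3% and 13.1%). The median was then -0.15, where the median of all genes was -0.45. Over all 8 libraries edgeR called 0 of 4, at a median of -0.56 (background 13.6% lower and 2.91% higher). Against DMSO 1 and 2 it called 3 lower and 1 higher (background 38.4% and 40.8%). MED15, the tail subunit that binds SMAD and SREBP factors, had 333, 339, 156 and 144 CPM across DMSO 1 to 4 against 138, 152, 156 and 141 CPM under SY-351. Its treated values overlapped those of DMSO 3 and 4, and the log2 fold of 0.40 ± 0.16 there (edgeR adjusted p = 0.0316) became -0.03 with total count scaling. MED24 had 146, 121, 171 and 168 CPM across DMSO 1 to 4 against 163 to 175 CPM under SY-351, which also overlap. Against DMSO 1 and 2 it was called lower at a log2 fold of -0.45, although every SY-351 CPM lay above that pair. MED25, the target of the VP16 activation domain, had 329, 371, 79.0 and 76.3 CPM across DMSO 1 to 4 against 63.1 to 66.7 CPM under SY-351, with a log2 fold of 0.16 ± 0.16 against DMSO 3 and 4 and -3.25 ± 0.07 against DMSO 1 and 2. MED23, which binds ELK1 and the adenoviral activator E1A, had 0.578, 0.251, 61.0 and 62.6 CPM across DMSO 1 to 4 against 35.1 to 42.2 CPM under SY-351, and its log2 fold was -0.24 ± 0.16 against DMSO 3 and 4 (adjusted p = 0.216) and 5.74 ± 0.29 against DMSO 1 and 2.

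At the head-tail boundary 1 of 4 genes fell over all 8 libraries (background 13.6%). Against DMSO 3 and 4 the count was 1 lower and 1 higher (background 26.4% and 21.9%). With total count scaling it was 3 lower and 0 higher (background 43.3% and 13.1%), and against DMSO 1 and 2 it was 2 and 2 (background 38.4% and 40.8%). MED29 had 55.0, 52.8, 51.6 and 50.0 CPM across DMSO 1 to 4 against 11.8, 13.5, 13.3 and 12.4 CPM under SY-351. It was the one lower member whose 4 controls were alike, at 52.3 ± 2.12 CPM against 12.8 ± 0.765 CPM with SY-351 (SD, n = 4 each), and no library overlapped. The log2 fold was -2.28 ± 0.37 (edgeR adjusted p = 0.00797), -1.57 ± 0.15 against DMSO 3 and 4 and -2.89 ± 0.09 against DMSO 1 and 2, although the CPM of both DMSO pairs were alike. Its interval is chr19:39391378-39400641 on the plus strand. MED28 had 40.4, 14.9, 122 and 127 CPM across DMSO 1 to 4 against 130, 139, 145 and 130 CPM under SY-351, so that all treated values were above the controls, by little for DMSO 4. Its log2 fold was 0.97 ± 0.43 over all 8 libraries (edgeR adjusted p = 0.163) and 0.54 ± 0.16 against DMSO 3 and 4 (adjusted p = 0.00247), and FAM184B lies on the opposite strand of its interval. MED30 had 89.5, 98.1, 35.1 and 33.9 CPM across DMSO 1 to 4 against 21.7 to 24.7 CPM under SY-351, with a log2 fold of -0.15 ± 0.16 against DMSO 3 and 4. MED27 was counted over 1 short transcript of 6.52 kb and had 0.0653 and 0.0386 CPM (7 and 4 counts) for DMSO 1 and 2, 4.6 and 5.03 CPM for DMSO 3 and 4, and 1.83 to 3.20 CPM under SY-351, with a log2 fold of -0.50 ± 0.25 against DMSO 3 and 4 (adjusted p = 0.0934).

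Of the 4 kinase module genes, against DMSO 3 and 4 MED12L and MED13 were called lower, MED12 and MED13L were not called, and the median log2 fold was -0.24 (background 26.4% lower). With total count scaling all 4 were called lower (background 43.3%), MED12 at -0.52 and MED13L at -0.31, at a median of -0.68. With all 8 libraries edgeR called 0 of 4, at a median of 0.44 (background 13.6% lower and 2.91% higher). Against DMSO 1 and 2 it called 0 lower and 3 higher (background 38.4% and 40.8%). MED12, the activator of the kinase and a gene mutated in uterine leiomyomas, had 84.8, 72.1, 173 and 172 CPM across DMSO 1 to 4 against 116, 127, 130 and 110 CPM under SY-351. MED13, the link between kinase and core and a substrate of the ubiquitin ligase FBW7, had 5.64, 4.84, 115 and 123 CPM across DMSO 1 to 4 against 50.4, 60.6, 60.7 and 95.5 CPM under SY-351. The fourth treated library stood above the other three for MED13, and all treated values lay between the DMSO pairs. The log2 folds against DMSO 3 and 4 were -0.09 ± 0.16 for MED12 and -0.42 ± 0.16 for MED13 (adjusted p = 0.0200). MED13L had 10.2, 10.6, 173 and 175 CPM across DMSO 1 to 4 against 129 to 153 CPM under SY-351, a log2 fold of 0.11 ± 0.16. MED12L had 0.969, 0.820, 21.2 and 17.7 CPM across DMSO 1 to 4 against 10.6 to 11 CPM under SY-351, a log2 fold of -0.40 ± 0.17 (edgeR adjusted p = 0.0423). Its interval of 350 kb overlaps 6 genes on the opposite strand, among them P2RY12.

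Of the 3 partners that complete the kinase module, CDK8 fell with every set of controls. CDK8, the module's main kinase, had 80.2, 101, 60.0 and 63.2 CPM across DMSO 1 to 4 against 26.4, 27.4, 27.4 and 27.2 CPM under SY-351. The treated libraries were nearly identical and less than the lowest control. The log2 fold was -1.81 ± 0.46 (edgeR adjusted p = 0.0333), -0.77 ± 0.16 against DMSO 3 and 4 and -2.55 ± 0.10 against DMSO 1 and 2; the call over all 8 libraries was lost without any 1 SY-351 library, without DMSO replicate 1 (edgeR adjusted p = 0.0789) and without DMSO replicate 2 (0.0685). Its paralog CDK19 had 16.0, 18.9, 43.8 and 43.5 CPM across DMSO 1 to 4 against 30 to 33.1 CPM under SY-351, with log2 folds of 0.05, -0.05 and 0.04 in the 3 comparisons, -0.47 and called lower against DMSO 3 and 4 with total count scaling, and AMD1 on the opposite strand. CCNC, which encodes cyclin C, had 46.2, 43.3, 48.3 and 49.8 CPM across DMSO 1 to 4 against 44.1 to 48.1 CPM under SY-351, which overlap. Its log2 fold was -0.23 ± 0.31 over all 8 libraries and 0.33 ± 0.16 against DMSO 3 and 4, neither called. Against DMSO 1 and 2 it was called lower at -0.77 ± 0.09 (edgeR adjusted p = 3.04e-05), although its CPM overlapped that pair.

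Ratios within a library do not depend on the scaling between libraries. For CDK19 over CDK8 the log2 count ratio stood at -2.32, -2.42, -0.45 and -0.54 in DMSO and 0.18, 0.14, 0.27 and 0.27 in SY-351. Every treated library was above every control, with means of 0.22 ± 0.07 against -1.43 ± 1.08 (SD, n = 4 each), a difference of 1.65 (exact permutation test, two-sided, p = 0.0286, the smallest that 4 against 4 allows, and 0.0857 adjusted over the 3 ratios). The difference was 0.71 against DMSO 3 and 4 and 2.59 against DMSO 1 and 2. For MED12L to MED12 the means were -4.80 ± 1.90 and -3.47 ± 0.14 (exact permutation p = 0.429), and the difference of 1.33 turned to -0.31 against DMSO 3 and 4. For MED13L to MED13 they were 0.77 ± 0.28 and 1.11 ± 0.45, a difference of 0.34 (exact permutation p = 0.257), with SY-351 replicate 4 at 0.44 and the other three at 1.27 to 1.41.

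**Figure D3:**
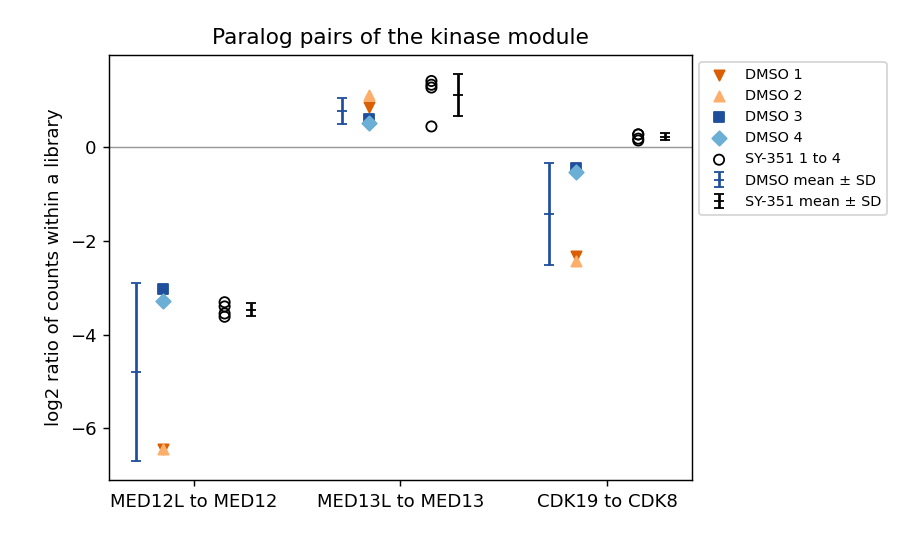
log2 ratio of counts (plus 1) of the 2 paralogs within each library, for MED12L to MED12, MED13L to MED13 and CDK19 to CDK8, with the mean and SD (bars) of the 4 DMSO and 4 SY-351 libraries. For CDK19 to CDK8 the SY-351 libraries sit at 0.14 to 0.27, above the 4 DMSO libraries at -2.42 to -0.45.

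Set side by side, head and middle genes lay lower than tail and kinase genes against DMSO 3 and 4: 13 of 14 head and middle genes were called lower (background 26.4%), against 0 of 4 tail and 2 of 4 kinase genes. With total count scaling the calls differed less, at 14 of 14 head and middle, 2 of 4 tail and 4 of 4 kinase genes (background 43.3%), and the medians were -2.07 for the head, -1.46 for the middle, -0.15 for the tail and -0.68 for the kinase module. Over all 8 libraries 4 of 14 head and middle genes were called lower (background 13.6%), against 0 of 4 tail and 0 of 4 kinase genes. The medians there were -0.81 for the head, -0.57 for the middle, -0.56 for the tail and 0.44 for the kinase module, so middle and tail were alike. The difference between modules was not tested. With TMM and DMSO 3 and 4, counting MED27 to MED30 with the head gave a head median of -1.57, and counting them with the tail a tail median of 0.01. Against DMSO 1 and 2 the order of head and middle against tail was reversed. There 6 of 14 head and middle genes were lower and 8 higher, while 3 of 4 tail genes were lower (background 38.4% lower and 40.8% higher). The medians were 3.58 for the head, 2.72 for the middle, -1.23 for the tail and 2.83 for the kinase module. Modules also differ in gene length. The 16 members with an interval under 20 kb held 12 of the 16 lower calls and had a median log2 fold of -0.97, and the 11 longer ones a median of -0.09; among all genes the medians were 0.01 in both classes, with 31.7% and 23.1% called lower. Across the 27 members the log2 interval length and the fold against DMSO 3 and 4 correlated at Pearson r = 0.55 and Spearman rho = 0.60, and across all 15811 genes at 0.05 and 0.04. These are descriptions over genes of the same libraries, and the parts of length and of module in the folds cannot be told apart for 27 genes.

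**Figure D4:**
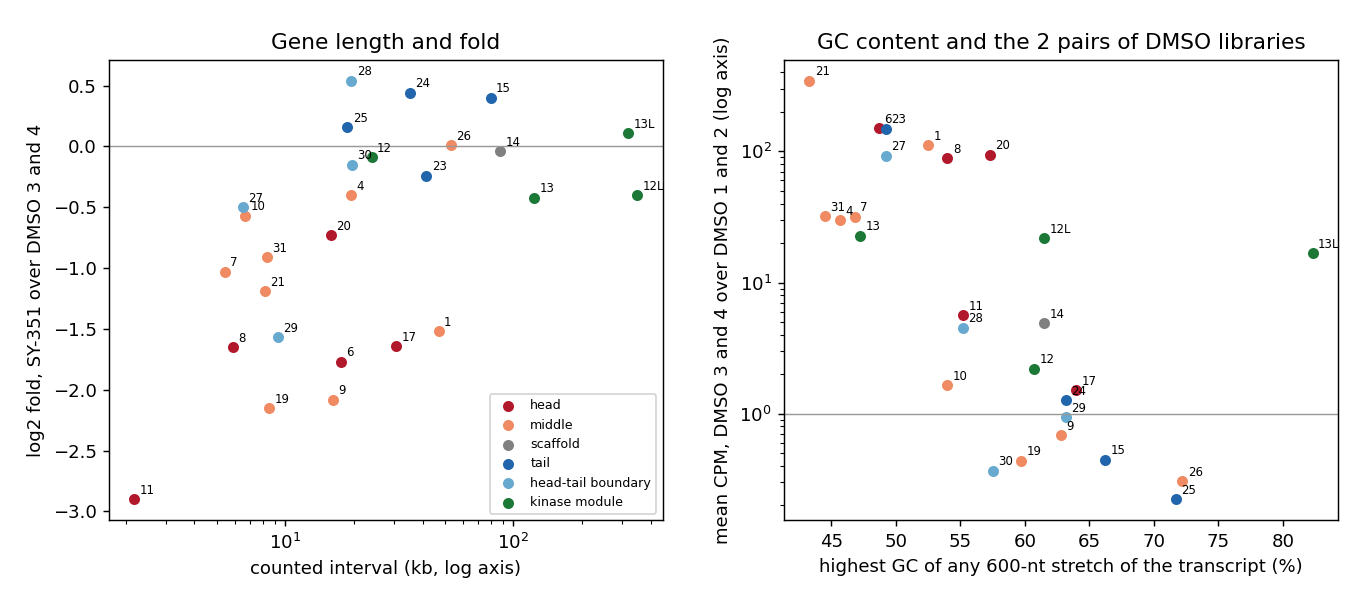
Left, log2 fold (SY-351 over DMSO 3 and 4) against the length of the counted interval (kb, log axis) for 27 Mediator genes, numbered and coloured by module; right, the ratio of mean CPM in DMSO 3 and 4 to that in DMSO 1 and 2 (log axis) against the highest GC content of any 600-nt stretch of the transcript. The lowest folds belong to head and middle genes of short to medium length, and genes whose richest stretch is low in GC, such as MED21, tend to have the higher ratios between the DMSO pairs.

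Among the 27 members, the ratio of DMSO 3 and 4 to DMSO 1 and 2 tended to be higher where the richest 600-nt stretch of the transcript was lower in GC. For 14 of 27 members the mean CPM in DMSO 3 and 4 was at least 5 times that in DMSO 1 and 2, up to 346 times for MED21, and for 7 it was lower (MED9, MED19, MED26, MED15, MED25, MED29 and MED30). The shares of all genes were not counted for these ratios. The highest GC content of any 600-nt stretch of the transcript was 43.3% for MED21, 72.2% for MED26 and 71.7% for MED25, and over the 27 genes it correlated with the log2 ratio between the pairs at Pearson r = -0.64 and Spearman rho = -0.75. MED13L departed from this, with 82.3% and a ratio of 16.7, and so did MED12L, with 61.5% and 21.7. GC content of the whole transcript was not compared with the ratio. The points share the same 4 libraries, and the part of base composition in the SY-351 folds was not tested.

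Genes of the preinitiation complex were counted beside the Mediator genes. Of 23 TBP, TAF and general factor genes, 21 were tested, and over all 8 libraries 3 were lower (14.3%, background 13.6%) and 0 higher by edgeR, at a median log2 fold of -0.76. TAF5, a TFIID core subunit, had 35.7, 41.0, 35.0 and 35.3 CPM across DMSO 1 to 4 against 12.9 to 14.7 CPM under SY-351 (log2 fold -1.65 ± 0.37, edgeR adjusted p = 0.0223). TBP, the TATA-binding protein, had 10.4, 13.7, 40.7 and 41.4 CPM across DMSO 1 to 4 against 10.1 to 12.7 CPM under SY-351, so that it overlapped with DMSO 1 and 2 (log2 fold -1.20 ± 0.31, edgeR adjusted p = 0.0344). Against DMSO 3 and 4, 11 of 21 were lower, led by GTF2E1 (-2.43 ± 0.17) and TBP (-1.49 ± 0.16), and 2 higher, TAF10 (0.85 ± 0.17) and TAF9B (0.60 ± 0.16), against a background of 26.4% and 21.9%. With total count scaling 17 were lower and 2 higher (background 43.3% and 13.1%), and against DMSO 1 and 2 it was 9 and 9 (background 38.4% and 40.8%).

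Among 12 genes of factors that work with Mediator (acetyltransferases, cohesin and its loader, and elongation factors), 3 were lower over all 8 libraries (25.0%, background 13.6%) and 0 higher by edgeR. Against DMSO 3 and 4, 6 were lower and 1 higher (background 26.4% and 21.9%), or 10 and 0 with total count scaling (background 43.3% and 13.1%). Against DMSO 1 and 2 the count was 6 and 5 (background 38.4% and 40.8%). Both acetyltransferase genes were among the 3. EP300 had 95.4, 83.7, 235 and 236 CPM across DMSO 1 to 4 against 49.5 to 63.7 CPM under SY-351 (log2 fold -1.47 ± 0.26, edgeR adjusted p = 0.00922), and CREBBP had 260, 270, 149 and 148 CPM across DMSO 1 to 4 against 38.1 to 46.1 CPM under SY-351 (log2 fold -2.67 ± 0.54, edgeR adjusted p = 0.0154). Neither overlapped between groups. Within cohesin, SMC3 and SMC1A differed against DMSO 3 and 4: SMC3 had 204 and 205 CPM there and 41.6 to 43.9 CPM with SY-351 (log2 fold -1.82 ± 0.15), while SMC1A had 597 and 603 CPM and 555 to 611 CPM (log2 fold 0.41 ± 0.17), but with total count scaling 0 of the 12 were called higher.

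Splicing was read from the authors' deposited table, in which each variation has the expected inclusion of its junctions in control and in SY-351, and the probability that they differ by 0.2 or more. The table gives no values per library, and a link it carries says that outliers were left out, without naming them. It holds 6716 variations in 3700 genes and none whose largest difference was under 0.117, so it is itself a selection. Of the 27 expressed members 10 are in it, and 18.9% of all genes tested for expression have a row there. At a probability of 0.95, 8 members changed (MED17, MED4, MED15, MED23, MED25, MED28, MED29 and MED13), against 64.2% of all genes in the authors' deposited table, and MED8 and MED26 did not reach it. By variation, 14 of 23 (60.9%) passed in these members against 55.7% overall in the authors' deposited table, which is near the background.

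**Figure D5:**
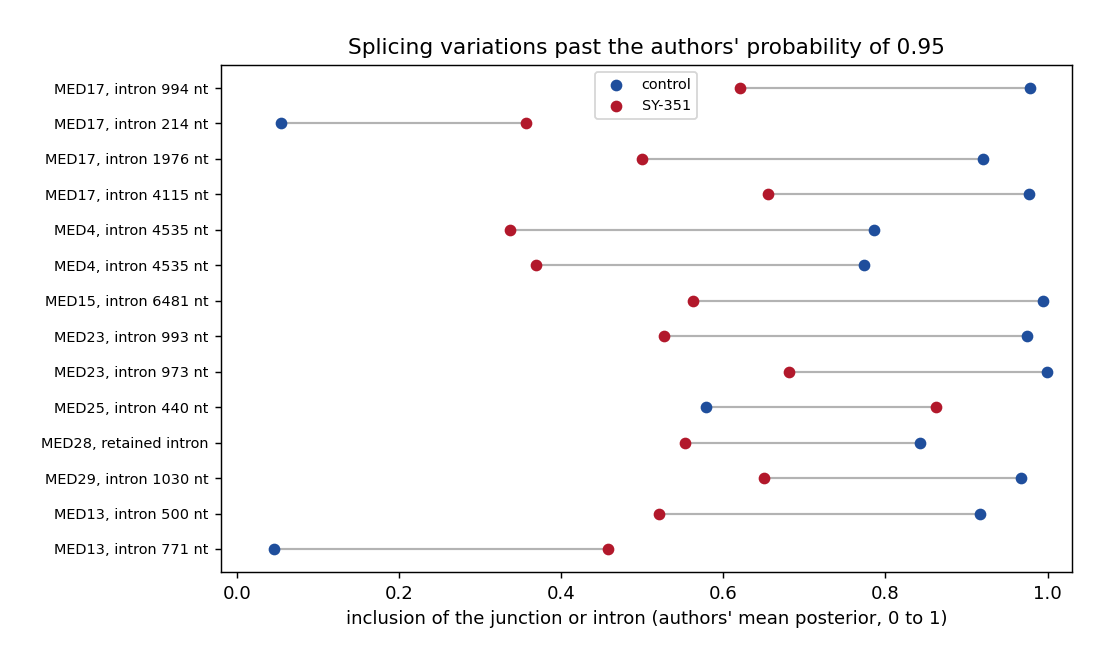
Inclusion in control (blue) and SY-351 (red), from 0 to 1, of the junction or retained intron with the largest difference in each of 14 variations of 8 Mediator genes past a probability of 0.95 in the authors' deposited table; the intron length in nt names the junction. Junctions that were used at 0.917 or more in control fell to between 0.499 and 0.681 in MED13, MED15, MED17, MED23 and MED29.

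In MED17 the authors' deposited table held 4 variations past the threshold. The junction into exon 8 (the 185-nt exon printed above) went from an inclusion of 0.978 in control to 0.621 with SY-351, and the junction that skips it, seen from the following exon, from 0.021 to 0.341 in the authors' deposited table. Seen from the preceding exon that junction went from 0.021 to 0.288 and did not pass in the authors' deposited table. A junction into a 190-nt exon outside the principal transcript (chr11:93794250-93794439) went from 0.054 to 0.357 there. A junction further downstream, over an intron of 1976 nt, went from 0.920 to 0.499, and a junction absent from the annotation, over 1347 nt, from 0.000 to 0.336 in the authors' deposited table. MED17 thus was lower in counts with every set of controls and had changed junctions, and the part of one in the other was not tested.

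Junctions at internal exons of MED13 and MED29 fell. MED13 exon 25 was joined to exon 24 at 0.917 in control and 0.520 with SY-351, and the junction that skips it, which the annotation lacks, rose from 0.083 to 0.480 in the authors' deposited table. Read from the other side, the skipping junction rose from 0.045 to 0.458 in the authors' deposited table. This exon has a length divisible by 3, so that its loss removes codons without a shift of frame. The MED29 junction from exon 2 to exon 3 fell from 0.967 to 0.650 in the authors' deposited table, with 0.165 for skipping the 59-nt exon and 0.184 for another donor, neither past the threshold. Skipping of this exon was thus not called.

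MED23 changed at a pair of neighbouring exons. The junction into exon 14 fell from 0.975 to 0.527 and a junction that skips exons 14 and 15 together rose from 0.001 to 0.319 in the authors' deposited table. Read from the other side, the same skipping junction went from 0.001 to 0.220 and did not pass (probability 0.527 in the authors' deposited table), while the junction out of exon 15 fell from 0.999 to 0.681. MED4 changed its donor site near the start of the gene: in the authors' deposited table, use of the donor 106 nt further upstream rose from 0.206 to 0.589, and use of the other fell from 0.786 to 0.337. Read from the 3' side, an unannotated MED15 junction over 5153 nt rose from 0.003 to 0.436 and one over 6481 nt fell from 0.994 to 0.563 in the authors' deposited table. Read from the 5' side none passed: the authors' deposited table has 0.001 to 0.271 for the 5153-nt junction, 0.419 to 0.335 for the 6481-nt one and 0.525 to 0.285 for one over 13979 nt.

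MED25 and MED28 changed in other ways. The MED25 junction over 440 nt near the end of the gene rose from 0.579 to 0.862, and its alternative over 2173 nt, which ends beyond the counted interval, fell from 0.412 to 0.134 in the authors' deposited table. A retained intron of MED28 fell from 0.843 to 0.553 in the authors' deposited table. Retained introns of MED8 (0.924 to 0.704) and MED23 (0.685 to 0.383) also had lower values with SY-351 but did not reach the probability in the authors' deposited table. CDK8 exon 7 of 13 (144 nt, chr13:26393367-26393510) was joined at 0.959 in control and 0.766 with SY-351, with a probability of 0.591 in the authors' deposited table, and so did not pass.

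The kinase module genes were each compared with every gene of at least 1 CPM on average for likeness of profile over the 8 libraries (Pearson r of log2 CPM plus 1, 12147 genes). The nearest to MED12 were ZFC3H1 (0.9995), LDB1 (0.9978) and SPTBN1 (0.9975), and the nearest to MED12L were CWC15 (0.9993), PDLIM5 (0.9992) and COPS4 (0.9989). MED13 was nearest to KMO (0.9967), SELENOK (0.9965) and POU2F1 (0.9961), and MED13L to SREK1 (0.9999), ZNF680 (0.9998) and ATXN3 (0.9998). All points share the 8 libraries, and all 4 profiles hold the distance between the DMSO pairs.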

How the data were processed

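PolyA RNA (TRIzol) was sequenced from Illumina TruSeq libraries, per the labels' protocols. The authors deposited whole-number counts made with featureCounts 1.6.2 at strand setting 1, per the file headers, over 1 interval per RefSeq transcript from start to end, introns included, so unspliced RNA counts as well. Reads in overlapping intervals on 1 strand can be lost; no member overlaps another row on its own strand. GRCh38 is the build in the submitters' processing notes. The aligner, and how 2 technical repeats made each column, are not given in the sources used here. Interval starts count from 0 in the table (5738 of 9159 plus-strand starts plus 1 equal a RefSeq start, 13 without the 1) and are printed counting from 1. The authors' splicing table carries MAJIQ and Voila column names, per the file headers, holds other values (expected inclusion and probabilities), and uses another build; its introns were matched to GENCODE by exact length within the gene, and its difference was turned to SY-351 minus control.

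Symbols came from a RefSeq table (17871 rows) and GENCODE (130); 92 rows kept their identifier and 13 second rows were set aside. Counts were fitted on the whole table with edgeR 4.0.16 in R 4.3.3 (TMM, filterByExpr, robust glmQLFit and glmQLFTest, group as the only term), tested first on simulated data. SE is the log2 fold over the square root of F. Printed CPM use library totals and folds use TMM, so both can differ. Same-numbered libraries did not deviate together (r of -0.157 to 0.038). With the DMSO libraries split into 2 unlike pairs, this check cannot exclude a pairing by number. The main fit has no replicate block because no label states a pairing. Promoters are RefSeq entries. The members, modules, other gene lists, rules for named genes and alternatives were chosen with earlier results of these data known, among them the distance of DMSO 1 and 2. One gene of the list of factors that work with Mediator is not reported here and was left out of its counts.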

Additional observations from a re-analysis of the deposited data

Results flagged for a closer look

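In 66 groups of 4 libraries (30 genes and 3 ratios, 2 groups each), 4 single libraries lay far from the other three by Dixon's ratio, past its 95% critical value, which chance gives in about 1 in 20 groups. MED4 had 26.6 CPM in SY-351 replicate 1, below 29.9 to 30.1 in the others. MED31 had 3.93 CPM in SY-351 replicate 3, above 3.35 to 3.40. MED24 had 163 CPM in SY-351 replicate 4, below 173 to 175. The log2 ratio of MED13L to MED13 was 0.44 in SY-351 replicate 4, below 1.27 to 1.41, and without this library the difference from DMSO was 0.57 in place of 0.34. All 4 are in treated libraries; the DMSO group splits into 2 pairs, a shape that this ratio cannot pick out.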

How the results depend on the processing

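The counts of lower and higher members were 5 and 0 with DESeq2 size factors or without the low-count filter, 6 and 0 with total count scaling, 9 and 0 with DESeq2 1.42.0, 16 and 3 without DMSO 1 and 2, 11 and 15 against DMSO 1 and 2 alone, and 24 and 0 without DMSO 1 and 2 under total count scaling, which was added after seeing the data. Leaving out 1 library at a time gave 3 to 9 lower and 0 higher: 9 without DMSO replicate 3 and 8 without DMSO replicate 4, where MED25, MED26 and MED30 joined (without DMSO replicate 3 also MED10), and 3 without SY-351 replicate 1 or 3. With a replicate block 0 members were lower and 0 higher, and edgeR called 0 of all 15472 genes, though 3649 genes, 5 members among them, had an unadjusted p below 0.05. Splicing counts of 8 became 8, 6 and 7 at a probability of 0.90, of 0.99, and of 0.95 with a difference of at least 0.3.

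Signs turned for members that were not called over all 8 libraries. With the replicate block MED6 was at 1.19, MED8 at 1.04, MED1 at 1.33, MED7 at 0.89, MED21 at 2.38 and MED31 at 1.04. Without DMSO 1 and 2, MED20 was at -0.73, MED4 at -0.40, MED26 at 0.01, MED14 at -0.04, MED15 at 0.40, MED23 at -0.24, MED25 at 0.16, MED27 at -0.50, MED12L at -0.40, MED13 at -0.42, CDK19 at -0.05, CCNC at 0.33 and the MED12L to MED12 ratio at -0.31. Against DMSO 1 and 2 alone MED6 was at 4.22, MED8 at 3.58, MED1 at 4.05, MED7 at 2.72, MED21 at 6.0, MED31 at 2.85 and MED24 at -0.45. MED20 was at -0.16 with total count scaling; with DESeq2 size factors MED24 was at -0.17 and CDK19 at -0.08, and with DESeq2 at -0.16 and -0.08. Omitting single libraries moved MED8 over -1.11 to 0.08, MED20 over -0.18 to 1.02, MED1 over -0.97 to 0.22, MED7 over -0.52 to 0.53, MED21 over -0.63 to 0.66, MED31 over -0.42 to 0.66, MED24 over -0.11 to 0.20, MED12 over -0.13 to 0.03 and CDK19 over -0.03 to 0.20. The ratios ranged over 0.78 to 1.92, 0.24 to 0.57 and 1.32 to 1.98 in the order printed, and pseudocounts of 0.5 or 5 kept their calls. The cause of these shifts was not tested. Counting error limits MED6, MED21 and MED27 in DMSO 1 and 2 most.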
